A study of Mus musculus with 6 samples.

Results

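Solute carriers, the membrane proteins that move sugars, amino acids, ions, metals, nucleosides and vitamins across lipid bilayers, were examined in 4T1 cells labelled ATM KO and in vector control cells. The genes were chosen by symbol alone: every listed gene whose name is Slc followed by a family number, a letter and a member number, leaving out the mitochondrial Slc25a family. That gave 161 of the 13405 genes listed, grouped by family number into 10 classes of substrate. Of the 161, 5 are not carriers (the scaffolds Slc9a3r1 and Slc9a3r2, the adaptor Slc4a1ap, the opposite-strand gene Slc7a6os and the pseudogene Slc2a4rg-ps), and Slc24a6 is the sodium-calcium exchanger of the mitochondrion. All of these stay in the counts of their classes. A mean value of at least 10 normalized counts over the 6 libraries was reached by 145 members, which were tested, and the other 16 had means of up to 9.26. Of the 145, 4 passed through 1 group alone: 3 had a control mean and 1 an ATM KO mean under 10. The 161 include no Slc2a3, Slc16a3 or Slc46a2, which were not analysed here.

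The study sequenced RNA of cultured 4T1 cells, a mammary tumour line from Balb/c mice, as 3 libraries of cells carrying a vector control and 3 libraries of cells labelled ATM KO. Both groups share the 4T1 background, and ATM is a kinase activated by DNA double-strand breaks. No drug, dose or time is named for either group, the sources used here do not say whether the knockout is 1 clone, and no source states separate cultures behind the libraries, so a p-value here reflects library-to-library spread, which may be technical. Values are normalized read counts (reads divided by 1 factor per library), values of a group are printed in the order of libraries 1 to 3, means are given ± SD (n = 3), and a log2 difference is the ATM KO mean less the control mean of log2(value + 1), with its standard error (SE).

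Most solute carriers work as uniporters, as symporters driven by the sodium or proton gradient, or as exchangers. Tumour cells are known for high levels of the glucose carrier GLUT1, the lactate carrier MCT1 and the glutamine and leucine carriers ASCT2 and LAT1, whose genes answer to hypoxia, MYC and the amino acid response factor ATF4. A few carriers touch the cGAS-STING pathway that the series title names: the human counterpart of the folate carrier Slc19a1 also imports the messenger cGAMP, and Slc15a3, Slc15a4 and Slc46a3 sit in endosomes and lysosomes.

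Among the controls, library 1 differed most. Its log2 values correlated at 0.914 with those of vector control 2, while vector controls 2 and 3 correlated at 0.997 and differed least in counts, though by more than sampling noise (a chi-square per gene of 16.3, against 76.9 to 365 in the other pairs). With ATM KO 1, 2 and 3, vector control 1 correlated at 0.940, 0.965 and 0.888, so it was closer to ATM KO 1 and 2 than to the other controls. The chi-square of 76.9 is that of vector control 1 and ATM KO 2. Between 22494919 and 32341508 reads per library lay in the listed genes. Atm mRNA stood at 1978, 1613 and 1519 in control libraries against 1959, 2219.8 and 1591 in ATM KO libraries, so it does not check the labels. Of 13 epithelial and mammary carcinoma markers, 11 were listed, and their levels differed widely. Krt18 lay between 22139 and 44957 and Cdh1 between 16607 and 18627. Krt14 had far fewer counts, at 150, 684 and 654 in control libraries against 2223, 1370 and 2311 in ATM KO libraries. Krt5 was at 0 in all 6 libraries. Of markers of other cell types, 3 of 15 immune, 3 of 10 fibroblast and 2 of 8 endothelial genes were listed, with sums of 943 to 2667, 146 to 754 and 2105 to 3280. Among them Csf1r, at 229, 378 and 387 in control libraries against 968, 438 and 1119 in ATM KO libraries, was higher in every ATM KO library. So were Eng and the epithelial Krt14 and Cldn4, as were 5.7% of all genes. The other listed immune genes overlapped: Cd68 stood at 301, 1001 and 1080 in control libraries against 806, 264 and 227 in ATM KO libraries (log2 -0.92). Cd14 had a log2 difference of 0.39. The part of these markers in the results below was not tested. In bulk RNA, fewer cells of a type and less RNA per cell cannot be told apart.

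No solute carrier passed the test between ATM KO and vector control cells. By limma, 0 of 145 members had an adjusted p under 0.05 over all genes tested (0% of the 12149 genes), and the smallest adjusted p of a member was 0.999. At an unadjusted p under 0.05 there were 7 members higher (Slc2a4, Slc17a5, Slc38a2, Slc39a13, Slc2a4rg-ps, Slc31a2 and Slc15a2), beside 2.77% of all genes, and 1 lower (Slc35f1), beside 1.39%. By edgeR 0 members passed and 7 higher and 1 lower had an unadjusted p under 0.05, beside 2.84% and 1.46%. By DESeq2, which called 84 genes (0.691%), 0 members passed, 8 higher and 1 lower had an unadjusted p under 0.05, beside 3.75% and 2.16%, and the smallest adjusted p was 0.301, that of Slc39a13. The 8 include Slc5a1, picked out with its values known. With a control mean of 8.93, it passed the filter at 10 only through the ATM KO libraries (38.5, 3.18 and 146). Slc35f1, the 1 lower, passed only through the controls, so the places of both in these counts are descriptions. Leaving out single libraries moved the higher count by limma, and the share over all genes moved the same way: 12 without vector control 1 (7.13% of all genes), 1 without vector control 2 (1.597%), 2 without vector control 3 (1.57%) and 2 without ATM KO 3 (2.33%). The lower count was 3 without vector control 1 (7.51% of all genes), 2 without ATM KO 1 (1.03%) and 2 without ATM KO 3 (1.25%).

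The median log2 difference of the 145 members was 0.039, beside -0.0090 over all genes, with 81 members positive (55.9%, beside 48.6% of all genes) and 64 negative. The ATM KO libraries all lay above the controls in 12 members (8.28%), beside 5.7% of all genes, and all below in 7 (4.83%), beside 5.48%. Without vector control 1 the median was 0.14 and those counts were 40 (27.6%, beside 19.6% of all genes) and 17 (11.7%, beside 21.8%). Without ATM KO 2 they were 25 and 12, beside 12.2% and 10.6% of all genes. The lower count was 13 without ATM KO 1 and 12 without ATM KO 3, beside 8.51% and 9.42%. Fewer libraries make it easier for groups not to overlap, so the counts are to be read against these shares.

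**Figure D1:**
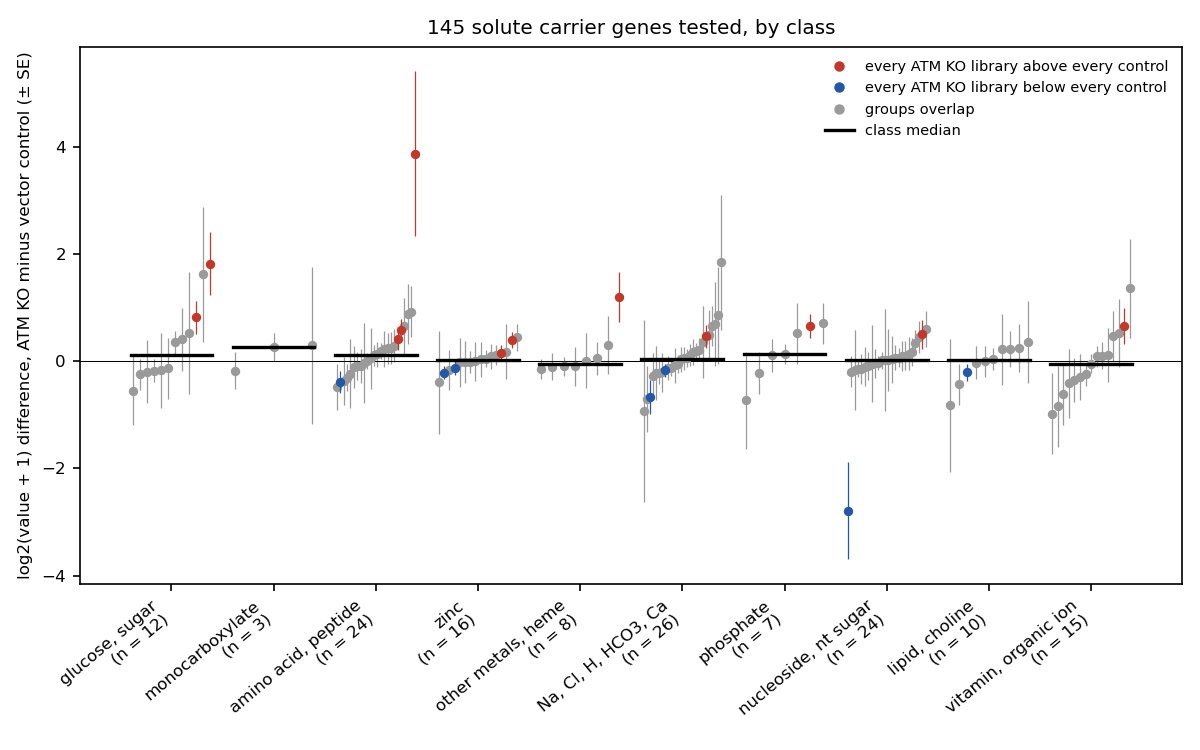
Log2 difference (ATM KO minus vector control, ± SE) of each of the 145 solute carrier genes tested, ordered within its class, with the class median as a black line. Red points (12) are members with all ATM KO libraries above the controls and blue points (7) those with all below, and class medians lay between -0.043 and 0.27.

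Amino acid and peptide carriers lay on both sides of 0, with 15 of 24 tested members positive, 9 negative and a median of 0.12. Slc38a2 (chromosome 15, 96687392 to 96699730, minus strand, GRCm38), which encodes the sodium-coupled neutral amino acid carrier SNAT2, stood at 10442, 7203 and 7078 in control libraries 1 to 3 against 10453, 13093 and 13354 in ATM KO libraries 1 to 3. All ATM KO libraries lay above the controls, but ATM KO 1 exceeded vector control 1 by only a few counts. Its means were 8241 ± 1907 and 12300.2 ± 1605, a log2 difference of 0.59 (SE 0.20) with an adjusted p of 0.999 by limma. The related Slc38a6 stood at 225, 253 and 268 in control libraries against 364, 281 and 359.6 in ATM KO libraries, a log2 difference of 0.42 (SE 0.22), and was likewise apart. Slc38a1, the SNAT1 carrier, overlapped at 5347, 2918 and 2942 in control libraries against 3663, 5481 and 3821 in ATM KO libraries. So did Slc38a9, the lysosomal arginine sensor of mTORC1, which was even across libraries at 301, 275 and 256 in control libraries against 294, 281 and 323 in ATM KO libraries.

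The heavy chain Slc3a2 was lower in every ATM KO library, while the light chains Slc7a5 and Slc7a11 overlapped. Slc3a2 encodes CD98, the subunit that carries LAT1 and the cystine exchanger xCT to the surface, and stood at 6488, 4326 and 4337 in control libraries against 3628, 4325 and 3501 in ATM KO libraries. ATM KO 2 lay only just under the controls, and the log2 difference of -0.38 (SE 0.21) shrank to -0.19 without vector control 1. Slc7a5, the leucine carrier LAT1, stood at 17598, 6266 and 6382 in control libraries against 6174, 8012 and 5219 in ATM KO libraries, and Slc7a11, the cystine-glutamate exchanger xCT, at 1165, 460.5 and 405 in control libraries against 342, 514 and 569.5 in ATM KO libraries. In both, vector control 1 was the high library and the other controls lay among the ATM KO values. Without it their log2 differences of -0.48 and -0.37 became 0.010 and 0.11. The arginine carrier Slc7a1 showed the same high library at 11494, 4851 and 4868 in control libraries against 5393, 8288 and 4852 in ATM KO libraries, and the glutamine carrier Slc1a5 stood at 4502, 1403 and 1402 in control libraries against 1973, 3298 and 847 in ATM KO libraries, with vector control 1 and ATM KO 2 the highest. Slc6a6, the taurine carrier, stood at 21005, 10536 and 10586 in control libraries against 13989, 16315 and 16952 in ATM KO libraries and overlapped.

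The peptide carrier Slc15a2 (PEPT2) was low in the controls and uneven in the ATM KO libraries. With a control mean of 5.33, it passed the filter at 10 and the naming mean of 50 only through the ATM KO libraries. Its place among the 7 higher members, and among the 12 with all ATM KO libraries above the controls, is therefore a description. It stood at 2.92, 6.77 and 6.30 in control libraries against 47.1, 12.7 and 1071 in ATM KO libraries. ATM KO 3 was far above every other library, and the log2 difference of 3.88 (SE 1.53) was 2.08 without it and 5.23 without ATM KO 2. DESeq2 gave it no adjusted p. The endolysosomal carrier Slc15a3, whose exons overlap those of Tmem132a over 28.1% of their length, stood at 11.7, 28.1 and 22.1 in control libraries against 47.1, 25.5 and 44.8 in ATM KO libraries, and Slc15a4 at 1006, 602 and 576 in control libraries against 601, 673 and 706 in ATM KO libraries. Both overlapped between the groups.

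The glucose and sugar class, set by family number, had 6 of 12 members positive, 6 negative and a median of 0.11, and -0.21 without vector control 1. Its 12 members include the pseudogene Slc2a4rg-ps and Slc5a6, which carries biotin and pantothenate. Slc2a1 (chromosome 4), which encodes GLUT1, stood at 3045, 7766 and 7508 in control libraries against 4744, 2761 and 10307 in ATM KO libraries. The lowest values were those of ATM KO 2 and vector control 1 and the highest that of ATM KO 3, so the spread inside each group exceeded the log2 difference of -0.13 (SE 0.57), which ranged from -0.63 to 0.32 as single libraries were left out. The 250 bases before its RefSeq start are shown because it is a known hypoxia-responsive gene (build GRCm38.p6, 5′ to 3′, matches in capitals):
Slc2a1, chr4:119108495-119108744, plus strand: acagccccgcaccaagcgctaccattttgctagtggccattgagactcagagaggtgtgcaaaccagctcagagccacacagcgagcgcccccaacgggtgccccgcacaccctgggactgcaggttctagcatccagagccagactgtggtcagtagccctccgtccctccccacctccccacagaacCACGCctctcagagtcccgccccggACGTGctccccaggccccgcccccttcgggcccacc
The capitals mark hypoxia response cores: ACGTG on the plus strand 32 bases before the start, and GCGTG on the reverse strand 57 bases before it. Both strands were searched for ACGTG or GCGTG, which 38.6% of all 32851 windows and 48.8% of the 170 member windows hold, and ACGTG is also part of the E-box CACGTG.

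Slc5a3, the myo-inositol carrier, stood at 1531, 6481 and 6474 in control libraries against 2554, 4237 and 3957 in ATM KO libraries and also overlapped. Slc2a4, the insulin-responsive glucose carrier GLUT4, was low but apart, at 5.84, 10.6 and 17.9 in control libraries against 54.8, 21.2 and 52.5 in ATM KO libraries (log2 1.82, SE 0.59); it falls below the mean of 50 set for naming and was picked out with its values known. The pseudogene Slc2a4rg-ps stood at 94.4, 67.7 and 61.99 in control libraries against 108, 161 and 129 in ATM KO libraries, again with every ATM KO library higher.

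Of the monocarboxylate carriers only Slc16a1, Slc16a6 and Slc16a13 were listed. Slc16a1, which encodes the lactate and pyruvate carrier MCT1, stood at 18081, 9034 and 8942 in control libraries against 9277, 13669 and 8028 in ATM KO libraries, with vector control 1 the highest and no separation of the groups (log2 -0.17, SE 0.34). Slc16a6, a carrier of ketone bodies, ranged widely inside both groups, at 2330.5, 104 and 96.7 in control libraries against 363, 1250.0 and 95.98 in ATM KO libraries, and its exons overlap those of neighbouring genes over 23.5% of their length. Its log2 difference was 0.30, and it was 1.81 without vector control 1, -0.61 without ATM KO 2 and -0.56 by DESeq2.

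Zinc carriers also lay on both sides of 0. The Slc30 proteins move zinc out of the cytosol and the Slc39 proteins move it in, and of 16 members, all tested, 9 were positive and 7 negative, with a median of 0.021. Slc39a13 (chromosome 2, 91061791 to 91070417, minus strand, GRCm38), a zinc carrier of intracellular membranes, stood at 1273, 1394 and 1434 in control libraries against 1954, 1779 and 1697 in ATM KO libraries. The lowest ATM KO library was well above the highest control, the means were 1367 ± 84.02 and 1810.2 ± 131 and the log2 difference was 0.40 (SE 0.15), between 0.35 and 0.45 as single libraries were left out. It missed the threshold by limma (adjusted p = 0.999) and by DESeq2 (adjusted p = 0.301).

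Smaller separations were seen in 3 other zinc genes. Slc39a4, the intestinal importer ZIP4, was very even in the controls, at 1457, 1445 and 1456 in control libraries against 1802, 1579 and 1477 in ATM KO libraries (log2 0.15, SE 0.15). Slc39a1 lay lower, at 1535, 1594 and 1515 in control libraries against 1383, 1439.9 and 1435 in ATM KO libraries (log2 -0.12, SE 0.14), and so did Slc30a4, the zinc carrier with the highest level per kb, at 8279, 8237 and 8032 in control libraries against 7362, 6561 and 7226 in ATM KO libraries (log2 -0.22, SE 0.12). The nearest control and ATM KO libraries stood at 1457 and 1477 for Slc39a4, 1515 and 1439.9 for Slc39a1, and 8032 and 7362 for Slc30a4. Slc39a14, which takes up zinc, iron and manganese, stood at 3629.5, 2564 and 2640.3 in control libraries against 3015, 3905 and 5264 in ATM KO libraries and overlapped through vector control 1. Slc39a10 stood at 2206, 1556 and 1557 in control libraries against 2428, 2168 and 1021 in ATM KO libraries and Slc30a9 at 4561, 6473 and 6105 in control libraries against 5202, 4818 and 6961 in ATM KO libraries, and in both the groups overlapped.

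Among carriers of other metals, Slc31a2 lay higher in every ATM KO library. Slc31a2, the low-affinity copper carrier CTR2, stood at 333, 498 and 546 in control libraries against 747, 709 and 2082 in ATM KO libraries. ATM KO 3 was the highest, and the log2 difference of 1.20 (SE 0.46) was 0.69 without it. The high-affinity copper importer Slc31a1 overlapped at 2510.5, 2401 and 2370.3 in control libraries against 1739, 2024 and 3292 in ATM KO libraries. So did the iron importer Slc11a2 (DMT1), at 2124, 675 and 692 in control libraries against 1247, 1942 and 769 in ATM KO libraries, the iron exporter Slc40a1 (ferroportin), at 202, 319 and 304 in control libraries against 307, 206 and 347 in ATM KO libraries, and the magnesium carrier Slc41a1, at 1426, 1935 and 1842 in control libraries against 1676, 1384 and 1639 in ATM KO libraries. The class had 4 members positive, 4 negative and a median of -0.041.

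**Figure D2:**
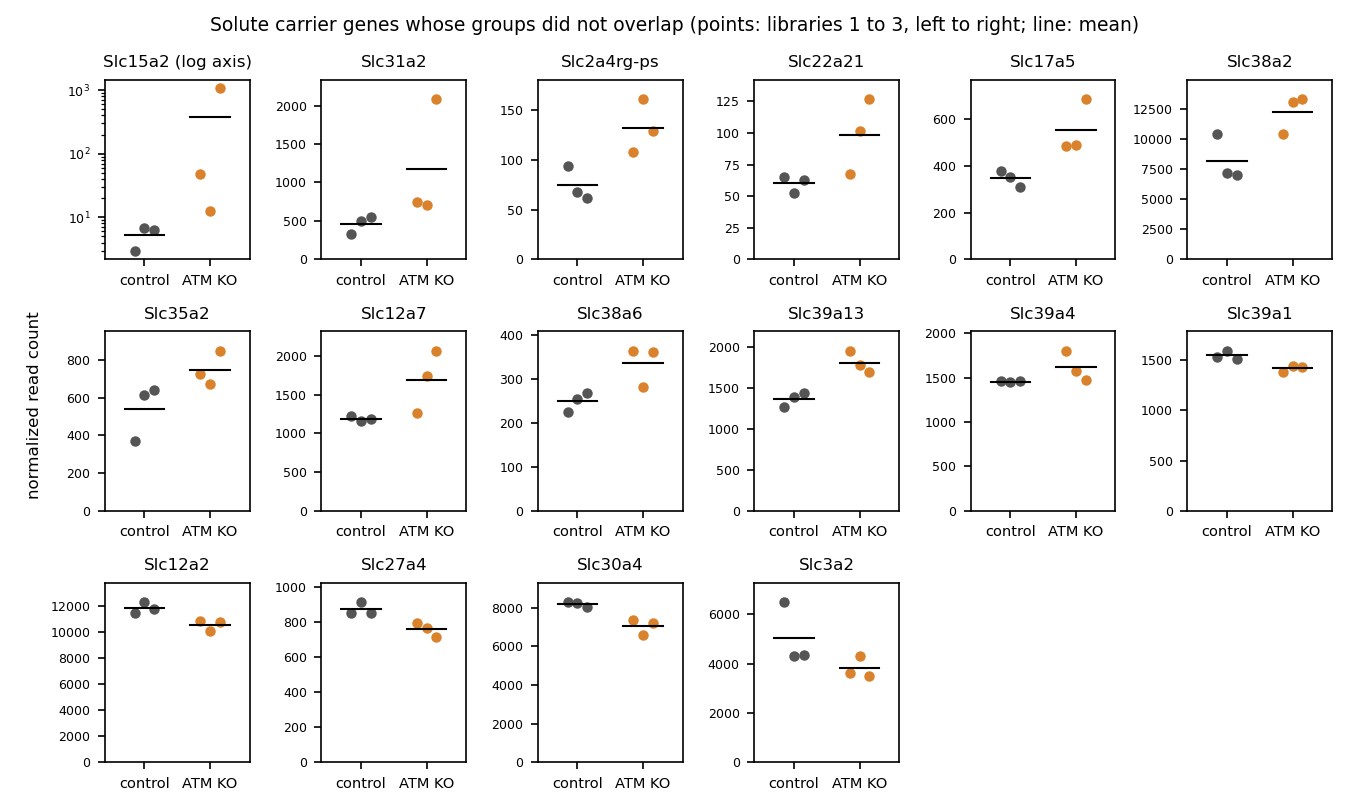
Normalized read counts in each library (points, libraries 1 to 3 from left to right) and group means (lines) for 16 non-overlapping members that reach a mean of 50 in 1 group or both; the Slc15a2 axis is logarithmic. In 11 the ATM KO libraries were the higher and in 5 the lower, and the ATM KO 3 points of Slc15a2 (1071) and Slc31a2 (2082) stood far above the other libraries.

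Carriers of sodium, chloride, protons and bicarbonate had 26 of 28 members tested, of which 14 were positive and 12 negative (median 0.047). Slc12a2, the chloride importer NKCC1, was lower by a small margin, at 11464, 12251 and 11738 in control libraries against 10796, 10015 and 10769 in ATM KO libraries (log2 -0.17, SE 0.12). The chloride exporter Slc12a7 (KCC4) lay higher, at 1226, 1161 and 1187 in control libraries against 1259, 1736 and 2067 in ATM KO libraries (log2 0.47, SE 0.21), though ATM KO 1 nearly met the controls. The bicarbonate importer Slc4a7 overlapped at 5196, 4389.9 and 4126 in control libraries against 3887, 4069 and 4621 in ATM KO libraries.

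The class of phosphate and phosphorylated sugar carriers, set by family number, had 5 of 7 members positive and a median of 0.13. Slc17a5, which encodes the lysosomal sialic acid exporter sialin, stood at 380.5, 351 and 312 in control libraries against 487, 488 and 686 in ATM KO libraries. The groups were clearly apart, with means of 348 ± 34.3 and 554 ± 115 and a log2 difference of 0.65, SE 0.22, by limma with an adjusted p of 0.999, which stayed between 0.49 and 0.74 as single libraries were left out. Slc20a1, the phosphate importer PiT1, was even in ATM KO cells and uneven in the controls, at 8457, 3241 and 3201 in control libraries against 7404, 6455 and 7988 in ATM KO libraries. Its log2 difference of 0.71 (SE 0.39) was 1.17 without vector control 1, the highest of the 6 libraries. Slc20a2 (PiT2) overlapped at 3893, 1982 and 2032 in control libraries against 2824, 3279.9 and 2126 in ATM KO libraries.

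Nucleoside and nucleotide sugar carriers were centred near 0, with 14 of 24 members positive and a median of 0.027. Slc35a2, which brings UDP-galactose into the Golgi, stood at 369.8, 613 and 639 in control libraries against 723, 675 and 848 in ATM KO libraries and was higher in every ATM KO library (log2 0.50, SE 0.27, and 0.25 without vector control 1). Slc35f1 lay lower in every ATM KO library, at 39.9, 14.5 and 17.9 in control libraries against 7.70, 3.18 and 0 in ATM KO libraries; with an ATM KO mean of 3.63 it passed the filter at 10 only through the controls, it is under the mean of 50 set for naming, and it too was picked out with its values known. The equilibrative nucleoside carrier Slc29a1 overlapped at 3352, 2001 and 2029.9 in control libraries against 2487, 3283 and 2063 in ATM KO libraries. Slc35a3, the UDP-N-acetylglucosamine carrier, stood at 6511, 5636 and 5436 in control libraries against 5142, 5779 and 4985 in ATM KO libraries, and Slc35e1 at 4445, 2607 and 2698 in control libraries against 3036, 4254 and 3023 in ATM KO libraries.

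Lipid and choline carriers had 5 positive and 5 negative members. Slc27a4, a fatty acid carrier with acyl-CoA synthetase activity, was lower by a small margin in every ATM KO library, at 853, 912 and 851 in control libraries against 797, 763 and 714 in ATM KO libraries (log2 -0.20, SE 0.16). The choline carriers Slc44a1 and Slc44a2 overlapped, at 6102, 10091 and 9707 in control libraries against 7768, 6131 and 11953 in ATM KO libraries, and at 5405, 10579 and 10305 in control libraries against 10089.5, 7382 and 7901 in ATM KO libraries, respectively.

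Of the vitamin and organic ion carriers 7 were positive and 8 negative, around a median of -0.043. Slc22a21, a carnitine carrier with close relatives on chromosome 11, stood at 65.2, 52.2 and 63.04 in control libraries against 67.6, 102 and 127 in ATM KO libraries, with ATM KO 1 only just above the controls. Slc19a1, the reduced folate carrier, stood at 2423, 624 and 577 in control libraries against 669.9, 1227 and 450.5 in ATM KO libraries, a log2 difference of -0.41 that was 0.26 without vector control 1. The lysosomal Slc46a3 was low throughout, at 8.76, 26.1 and 25.2 in control libraries against 17.1, 8.49 and 10.2 in ATM KO libraries. The ascorbate carrier Slc23a2 overlapped at 2804, 1882 and 1919 in control libraries against 2442, 2226 and 2283 in ATM KO libraries, as did Slc22a23 at 790.1, 1207 and 1195 in control libraries against 1231, 844 and 2894 in ATM KO libraries.

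Per kilobase of exon, the highest levels belonged to carriers of fuels and amino acids. Slc7a5 stood at 2719 ± 1755 normalized counts per kb in controls against 1744 ± 383 with ATM KO, and Slc16a1 at 2716 ± 1186 and 2333 ± 669. Slc6a6 and Slc2a1 followed, with the scaffold gene Slc9a3r1 beside them, at 1660.5 ± 713 and 1742 ± 757 in control cells, and the ranges of mean ± SD of these 4 carriers overlapped. The zinc carrier Slc30a4 came next with little spread, at 1493 ± 24.1 and 1286 ± 78.2 per kb.

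**Figure D3:**
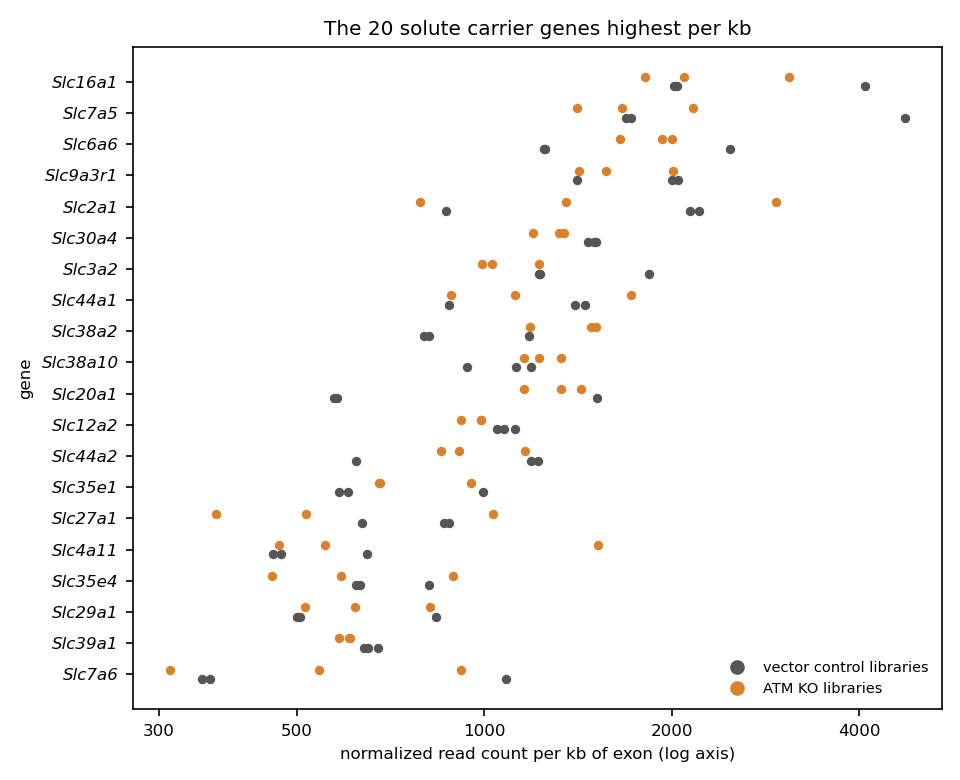
Normalized read count per kb of exon (logarithmic axis) in each library for the 20 members with the highest mean per kb; grey points are vector control and orange points ATM KO libraries. Slc16a1, Slc7a5 and Slc6a6 lead, each with vector control 1 as the highest point, while Slc2a1 and Slc44a1 reach their highest point in ATM KO 3.

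The median spread between libraries of a group was larger than the median size of the difference between the groups. The median SD within groups was 0.45 on the log2 scale, beside 0.37 over all genes. The median absolute log2 difference was 0.21, beside 0.19 over all genes. Of the 145 members, 79 spanned more than 2-fold and 35 more than 4-fold over the 6 libraries. These spans include any difference between the groups and were not counted over all genes. Vector control 1 held the highest value in 55 and the lowest in 40, together 65.5%, beside 63.2% of all genes. The median gap between vector control 1 and the mean of vector controls 2 and 3 was 0.73 on the log2 scale, while the median gap between vector controls 2 and 3 was 0.071. The gap of vector control 1 exceeded 1 in 37.2% of members, beside 28.7% of all genes.

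The 87 tested members outside the naming rule include Slc2a4 and Slc35f1. The other 85 overlapped between the groups, 48 with a positive and 37 with a negative log2 difference, from -0.98 to 1.62.

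Among members with a mean of at least 50 over the 6 libraries, the 10 with the widest such gap went in both directions. Slc16a6, given above, had vector control 1 at 23.3 times the mean of the other controls. Slc30a1, the main zinc exporter of the plasma membrane, stood at 1190.0, 127 and 137 in control libraries against 178, 424 and 120.3 in ATM KO libraries, which put vector control 1 at 9.04 times the other controls. Slc35b1, which exchanges ATP and ADP across the endoplasmic reticulum, stood at 1074, 151 and 149 in control libraries against 394, 577 and 113 in ATM KO libraries. The nucleoside carrier Slc29a2 had the same high libraries at 846, 193 and 158 in control libraries against 329, 451 and 157 in ATM KO libraries, as did the biotin and pantothenate carrier Slc5a6 at 832, 181 and 177 in control libraries against 235, 464 and 171 in ATM KO libraries and Slc10a3 at 515, 98.7 and 94.6 in control libraries against 200.2, 396 and 128 in ATM KO libraries. In all 6 of these vector control 1 was the highest library and ATM KO 2 the second highest.

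In the other 4 members vector control 1 lay far below the other controls. The potassium-chloride exporter Slc12a5 (KCC2) was at 7.78, 208 and 211 in control libraries against 400.4, 166 and 270.0 in ATM KO libraries, the bicarbonate carrier Slc4a4 (NBCe1) at 96.3, 710.0 and 704 in control libraries against 1298, 307 and 727 in ATM KO libraries and the sugar carrier Slc5a9 at 10.7, 59.01 and 59.9 in control libraries against 85.6, 9.55 and 138 in ATM KO libraries. Slc5a3, given above, was the fourth, with vector control 1 at 0.236 of the other controls. Vector control 1 was the lowest library in Slc12a5, Slc4a4 and Slc5a3, and ATM KO 2 was the lowest in Slc5a9. Without vector control 1 the log2 difference of Slc12a5 was 0.32 instead of 1.85, and that of Slc4a4 -0.10 instead of 0.86.

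**Figure D4:**
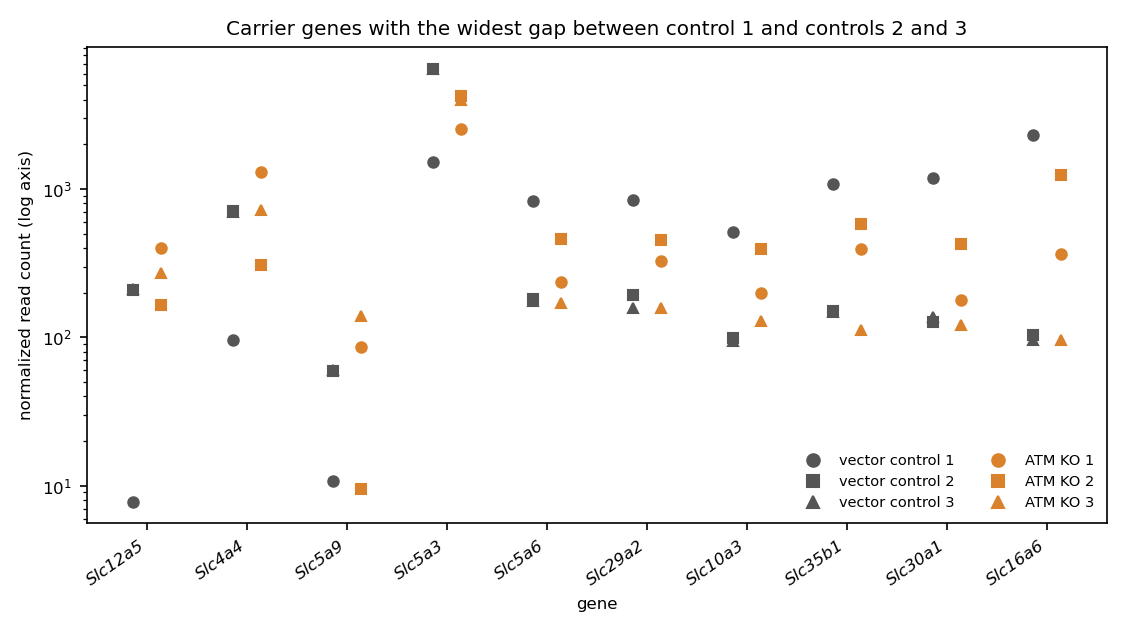
Normalized read counts (logarithmic axis) of the 10 members with the widest gap between vector control 1 and the other controls, among those with a mean of at least 50, ordered by that gap; grey symbols are vector control and orange symbols ATM KO libraries, with circles, squares and triangles for libraries 1, 2 and 3. From Slc12a5 on the left (7.78 in vector control 1) to Slc16a6 on the right (2330.5), the grey circle lies below the other grey symbols in the first 4 genes and above them in the last 6, and those of libraries 2 and 3 lie close to each other.

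Known targets of the same regulators were set beside these carriers. Hypoxia targets (26 tested, no solute carrier among them) had median deviations from the 6-library mean of -1.45, 0.83 and 0.85 in the controls, against -0.043, -0.78 and 0.60 in the ATM KO libraries. Their median log2 difference was -0.079, and -0.91 without vector control 1. The glucose class was lowest in the same library, at -0.68 in vector control 1 against 0.21 and 0.13 in the other controls. Its ATM KO libraries stood at 0.12, -0.12 and 0.37. Vector control 1 was also the lowest library for the lipid and choline class (-0.51) and for the class of other metals (-0.32). ATF4 targets (21 tested, likewise without carriers) stood at 0.64, -0.040 and -0.042 and at -0.14, 0.18 and -0.51, with vector control 1 the highest. It was also the highest library for Slc7a5, Slc3a2, Slc7a11 and Slc7a1, but not for Slc38a2, where all 3 ATM KO libraries lay above it, nor for the neutral amino acid carrier Slc1a4, picked out with its values known, at 1105, 1109 and 1105 in control libraries against 936, 645 and 1194 in ATM KO libraries. Whether either program plays a part in the carrier values was not tested.

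**Figure D5:**
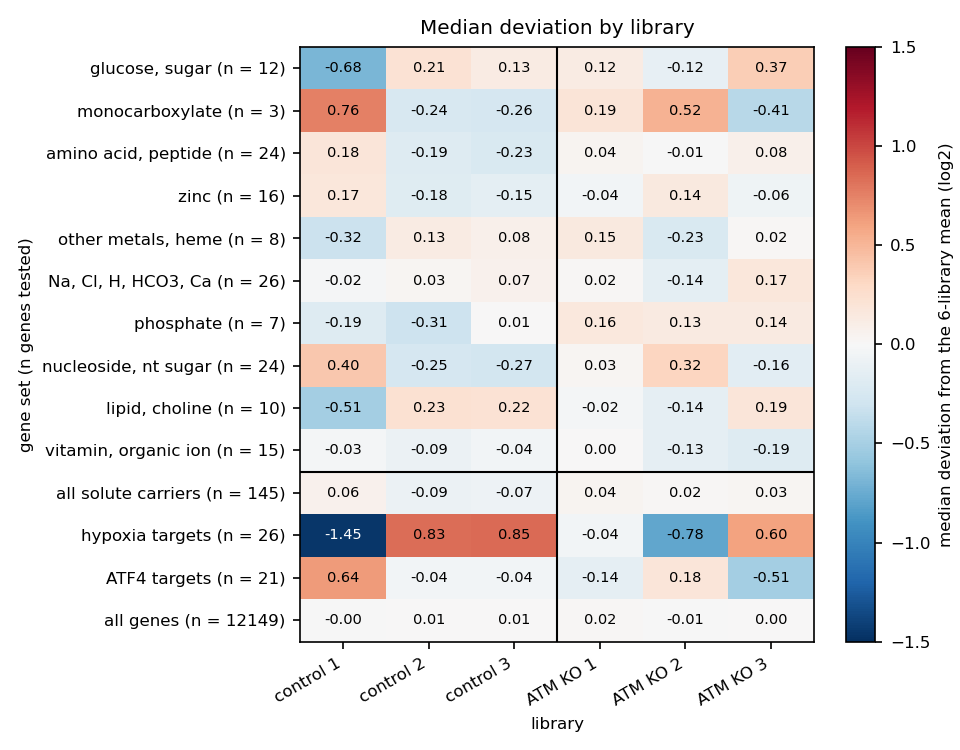
Median deviation from the 6-library mean (log2) of each class of solute carriers, of all members, and of hypoxia targets, ATF4 targets and all genes, by library. Within its row, vector control 1 is the lowest library for the glucose (-0.68), lipid (-0.51) and other metal (-0.32) classes and for hypoxia targets (-1.45). It is the highest for the monocarboxylate (0.76), nucleoside (0.40), amino acid (0.18) and zinc (0.17) classes, for all members (0.064) and for ATF4 targets (0.64). The medians of all genes lie between -0.0081 and 0.015.

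Slc30a1 and the metallothioneins are known targets of the zinc-sensing factor MTF1, and their highest and lowest libraries differed. Mt1 stood at 398, 1410.4 and 1562 in control libraries against 746, 474 and 1591 in ATM KO libraries, and Mt2 at 139, 355 and 422 in control libraries against 359, 286 and 482 in ATM KO libraries. Vector control 1 was thus the lowest library for both metallothioneins and the highest for Slc30a1. The metallothioneins were picked out with their values known, and the cause of the difference was not tested. The Slc30a1 promoter is shown because the gene has a known metal response and spread widely between libraries. The run is the 250 bases before its RefSeq start on build GRCm38.p6, 5′ to 3′, with the match in capitals:
Slc30a1, chr1:191906531-191906780, plus strand: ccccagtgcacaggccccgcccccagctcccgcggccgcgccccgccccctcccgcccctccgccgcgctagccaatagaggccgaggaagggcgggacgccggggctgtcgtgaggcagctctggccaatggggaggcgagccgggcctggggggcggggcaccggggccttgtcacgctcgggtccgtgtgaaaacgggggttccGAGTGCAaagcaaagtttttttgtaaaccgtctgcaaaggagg
The capitals mark the metal response core TGCACNC, found on the reverse strand 37 bases before the start. The search took TGCACNC and TGCGCNC on both strands, and 21.4% of all 32851 windows of this length hold one, beside 27.6% of the 170 windows of the 122 members that RefSeq's table matched. A match describes letters and does not show a bound site.

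Genes that work with the carriers did not pass the test either. Of 12 glucose and lactate transport helpers, 4 were positive and 8 negative, with a median of -0.22. Without vector control 1 the median was -0.66, and 7 were lower in every ATM KO library (58.3%, beside 21.8% of all genes). Bsg, the chaperone that brings MCT1 to the surface, stood at 8775, 33662 and 33365 in control libraries against 17798, 12386 and 26127 in ATM KO libraries, and Hk2, which traps glucose as its phosphate, at 6017, 15788 and 15985 in control libraries against 8232, 7379 and 12619.9 in ATM KO libraries. Vector control 1 was the lowest library for both and the lowest control for Slc2a1, but the highest for Slc16a1. Of 32 amino acid sensing and mTORC1 genes, 13 were positive and 19 negative (median -0.053), with Atf4 at 8498, 4573 and 4433 in control libraries against 3304, 5167 and 3073 in ATM KO libraries. Of 21 ATF4 targets, 5 were positive and 16 negative (median -0.34, and -0.031 without vector control 1), and 5 (Psat1, Sars, Cars, Trib3 and Ddit3) were lower in every ATM KO library, beside 5.48% of all genes. These 5 were picked out with their values known.

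Of 20 zinc and metal handling genes, 12 were positive and 8 negative. The transferrin receptor Tfrc, the iron uptake partner of Slc11a2, stood at 34589, 32034 and 31303 in control libraries against 17577, 28364 and 14439.7 in ATM KO libraries, lower in every ATM KO library (log2 -0.76, SE 0.26, limma adjusted p = 0.999). Of 27 sodium pump subunits and regulators of ion carriers, 15 were positive and 12 negative (median 0.027). None of these lists held a gene called by limma, edgeR or DESeq2.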

How the data were processed

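RNA-seq libraries of 3 vector control and 3 ATM KO 4T1 cells were grouped by sample title. Each deposited file holds a signal, the read count of a gene scaled by a factor particular to that library. This comes from the values, since 100% of them, within 0.01 reads, are whole multiples of 1 step. Tools listed in the submitters' processing notes, with no version or role, are STAR, HTSeq, DESeq2, SAMtools, cutadapt and Trim Galore, and the builds are mm9 and GRCm38; strand use is not stated, so genes with overlapping exons (7 members over 20% of exon length) are uncertain. Of the gene IDs, 98.8% were found in GENCODE M21 (GRCm38), which gave coordinates and exon lengths.

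The main test was limma 3.58.1 (R 4.3.3; empirical Bayes with trend, 2-sided) on log2(value + 1), which understates changes of low genes, over the 12149 genes with a mean of at least 10, Benjamini-Hochberg adjusted, threshold 0.05. The recovered reads were also tested with DESeq2 1.42.0 and with edgeR's quasi-likelihood test (edgeR 4.0.16). Other alternatives were pseudocounts of 0.5 and 10, no filter, a mean of at least 50, quantile normalization, equal totals, a replicate block and each library left out. The labels give no batch or date.

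In simulated counts for the 12149 genes with this spread, limma recovered 5% of 2-fold and 43% of 4-fold changes with 1 false call, and DESeq2 34% and 79% with 48. Members named were those called; the 12 largest rises and falls without overlap, given a mean of 50 or more in at least 1 group; a fixed panel; the 2 most abundant per class; and, among members with a mean of at least 50, the 10 with the widest gap between vector control 1 and the other controls. From each list of other genes, up to 3 with the highest mean were named, apart from genes picked out with their values known. Some genes that these rules pick are not reported here. The symbol rule for members, the classes and the lists were set with earlier results of these data known.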

Additional observations from a re-analysis of the deposited data

How the results depend on the processing

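No member passed the threshold under any of the 15 alternatives (0 calls), and the member median stayed between -0.0027 and 0.14. The replicate block takes the numbers in the titles as pairs. By limma it left 3 members with an unadjusted p under 0.05 on the higher side instead of 7 (1.88% of all genes instead of 2.77%). The deviations of same-numbered libraries from their group means correlated at -0.021, -0.58 and 0.53. Those of vector control 1 and ATM KO 2 correlated at 0.61. Such correlations cannot show whether libraries of the same number were made together. With a mean of at least 50 required, 0 members were lower at an unadjusted p under 0.05, since Slc35f1 falls under that mean. Leaving out 1 library gave 1 to 12 higher and 1 to 3 lower at an unadjusted p under 0.05, beside 1.57% to 7.13% and 0.280% to 7.51% of all genes. Without overlap it gave 13 to 40 higher and 7 to 17 lower, beside 6.61% to 19.6% and 6.33% to 21.8%. The split of non-overlapping members, 12 to 7, was 11 to 8 after quantile normalization (5.34% and 6.10% of all genes) and 15 to 6 with equal library totals (7.15% and 4.12%), against 5.7% and 5.48% as deposited.

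Of the 56 named members, 27 kept their direction throughout. Leaving out 1 library turned the other 29, none of them called, with these ranges of the log2 difference: Slc15a4 -0.24 to 0.16, Slc1a5 -0.68 to 0.33, Slc7a1 -0.34 to 0.31, Slc7a11 -0.66 to 0.11, Slc7a5 -0.73 to 0.010, Slc2a1 -0.63 to 0.32, Slc5a3 -0.89 to 0.15, Slc5a6 -0.57 to 0.57, Slc5a9 -0.27 to 1.65, Slc11a2 -0.027 to 0.85, Slc31a1 -0.37 to 0.089, Slc40a1 -0.15 to 0.27, Slc10a3 -0.078 to 1.16, Slc44a1 -0.29 to 0.19, Slc44a2 -0.32 to 0.17, Slc16a1 -0.39 to 0.16, Slc16a6 -0.61 to 1.81, Slc29a1 -0.076 to 0.35, Slc29a2 -0.50 to 0.71, Slc35b1 -0.46 to 0.97, Slc35e1 -0.056 to 0.36, Slc20a2 -0.059 to 0.43, Slc4a4 -0.10 to 1.41, Slc19a1 -0.80 to 0.26, Slc22a23 -0.035 to 0.85, Slc23a2 -0.0027 to 0.29, Slc30a1 -0.95 to 0.66, Slc30a9 -0.17 to 0.091 and Slc39a10 -0.23 to 0.39. By another scaling or tool, Slc40a1 was at -0.017 after quantile normalization, where Slc35b1 was at -0.030, Slc30a9 at 0.020, Slc44a1 at 0.00992 and Slc44a2 at 0.036. With equal totals Slc44a1 was at 0.013, Slc44a2 at 0.036 and Slc30a9 at 0.021. By edgeR and DESeq2, Slc16a6 was at -0.56 and -0.56 and Slc35b1 at -0.34 and -0.34. The cause was not tested. At this spread, limma recovered 43% of 4-fold changes in simulated data, and members with values under 50 are the least certain.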

Other observations

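Other transporter families gave a mixed picture, and 0 of their members passed limma, edgeR or DESeq2 over all genes. Of 17 ABC transporters tested, 5 were positive and 12 negative, with a median log2 difference of -0.19. Abcc1, the multidrug resistance exporter MRP1 that also exports glutathione conjugates, stood at 9899, 9312 and 9360.3 in control libraries against 7174, 6968 and 5497 in ATM KO libraries. Every ATM KO library was lower, with a log2 difference of -0.55 (SE 0.15) and an adjusted p of 0.999 by limma and of 0.176 by DESeq2. Abca3, which had the next most reads, overlapped.

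The prostaglandin carrier Slco2a1, whose symbol falls outside the rule, stood at 4263, 4143 and 4079 in control libraries against 5533, 5720.4 and 14304 in ATM KO libraries. Its ATM KO libraries were all higher, ATM KO 3 by far, and the log2 difference of 0.88 (SE 0.37) was 0.44 without ATM KO 3. Of 5 aquaporins, 4 were positive. Aqp5 stood at 2721, 1655 and 1662 in control libraries against 2079, 1948 and 1494 in ATM KO libraries and Aqp1 at 648, 1675 and 1667 in control libraries against 1258, 1402 and 1935 in ATM KO libraries, and both overlapped.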
